A study of Bos taurus with 11 samples.

Results

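The constitutive proteasome is the protease that degrades most ubiquitin-tagged proteins in the cytosol and nucleus of every cell. Its core is a barrel of PSMA subunits, which form the outer alpha rings, and PSMB subunits, which form the inner beta rings and include the catalytic subunits PSMB5, PSMB6 and PSMB7. A cap sits on the end of the barrel, made of PSMC subunits, ATPases that unfold the substrate and feed it in, and PSMD subunits, which bind ubiquitin, remove it or hold the cap together. In immune cells and under interferon the catalytic subunits are exchanged for PSMB8, PSMB9 and PSMB10, which are therefore left out of the constitutive set.

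The members were all genes whose symbol begins with PSMA, PSMB, PSMC or PSMD and a number, without PSMB8, PSMB9 and PSMB10, each represented by its brightest probe set, by the mean of all arrays, among those annotated with exactly 1 symbol. The rule used no difference between the groups. It found 29 of the 9155 genes measured, 13 of the core (6 PSMA, 7 PSMB) and 16 of the cap (6 PSMC, 10 PSMD). PSMA2, PSMD3, PSMD7, PSMD8 and PSMD12 are not analysed here. PSMD5, PSMD9 and PSMD10 meet the rule, though they are chaperones of cap assembly and not part of the finished particle. All 29 were well measured: gene means ran from 6.95 for PSMD10 to 11.30 for PSMA6 on the log2 scale, all above 5.52, under which the dimmest 40% of probe sets lie.

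The signals came from uterine endometrium of 11 multiparous Holstein-Friesian cows, with 1 Affymetrix bovine array per cow, taken at slaughter 14 days after calving. Their parity averaged 4.7, and they were allocated at random, from day 2 after calving, to a regime meant to give mild or severe negative energy balance, the state in which milk and maintenance take more energy than feed supplies. Mild cows (n = 5) had silage without limit, 8 kg of concentrate a day and 1 milking a day, and severe cows (n = 6) had 25 kg of silage, 4 kg of concentrate and 3 milkings a day. The design asks how endometrial transcripts differ between these groups.

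As checks of the tissue, the epithelial EPCAM ran from 8.69 to 10.99 and the stromal COL1A1 from 12.88 to 13.59 over the cows, while KRT8, an epithelial keratin, was near the floor in every cow (4.15 to 4.54). Pairs of arrays correlated at 0.948 to 0.991. RNA quality, read from 3 bovine control transcripts as the 3' probe set minus the 5' one, overlapped between the groups (-0.33 to -0.04 in mild cows, -0.44 to -0.16 in severe cows). An array has no read depth, and the number of arrays limits the precision. Because tissue was measured in bulk, fewer cells of a type and less RNA per cell cannot be told apart.

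Most proteasome subunits averaged slightly less in severe than in mild cows, and no difference passed the test across all probe sets. The log2 difference, severe minus mild, was below 0 in 25 of 29 subunits, against 51.1% of all genes, and its median was -0.13, or 8.35% less signal, against -0.00378 over all genes. Differences ran from -0.40 for PSMB5 to 0.03 for PSMD11. Limma called 0 of 24016 probe sets at an adjusted p under 0.05 (0.00% of the 9155 genes), and the members' adjusted p ran from 0.307 to 0.996. At an unadjusted p under 0.05, 5 members were lower (17.2%, background 7.46%), PSMB5, PSMB3, PSMD13, PSMB1 and PSMC5, and 0 were higher (background 8.45%). In 0 of 29 members were the groups free of overlap, while over all genes 0.437% had every severe cow below every mild cow and 0.754% had every severe cow above. The count of 5 depended on single cows. Without mild 5 it was 14, 48.3% of the members against 11.5% of all genes. Without mild 1 or mild 4 it was 1, or 3.45% of the members, below the 6.00% and 5.21% of all genes. Without mild 3 or severe 2 it was 2, or 6.90%, against 5.09% and 5.20% of all genes. Without mild 2, severe 1 or severe 4 it was 3, or 10.3%, against 5.49%, 7.71% and 5.07% of all genes. The subunits share arrays and cows, so their count is not a count of independent observations.

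**Figure D1:**
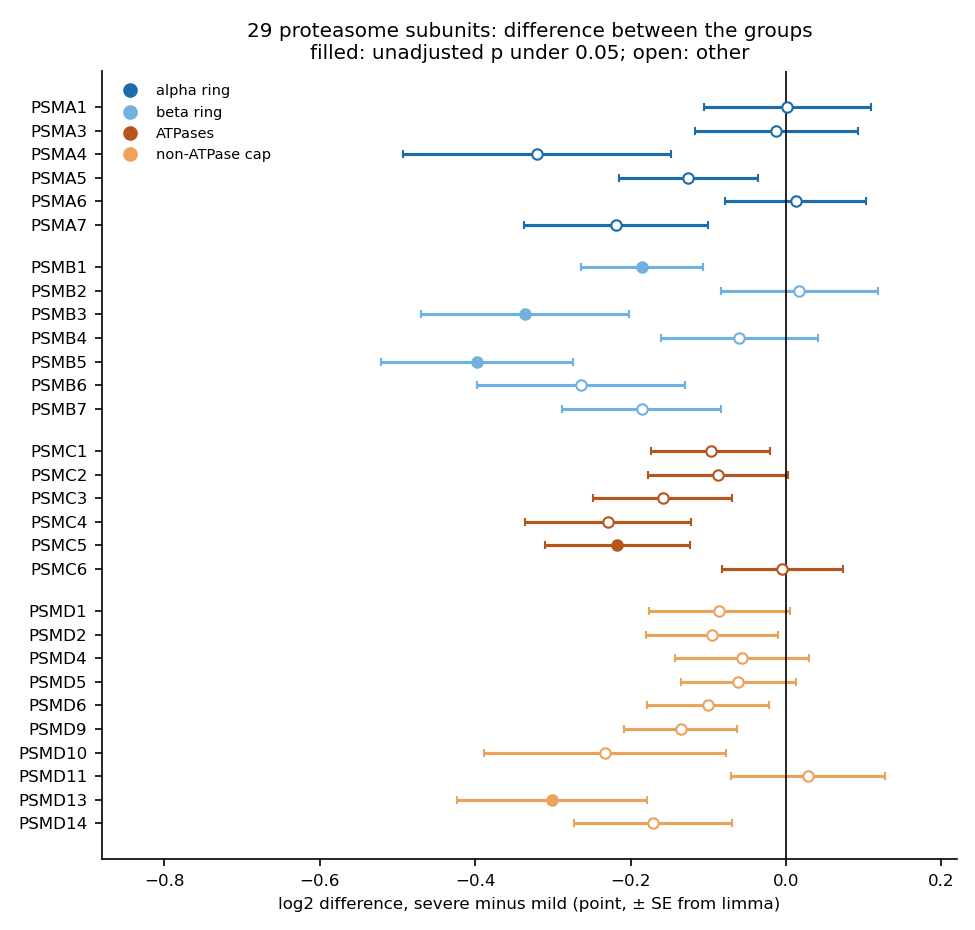
Log2 difference, severe minus mild, of each of the 29 subunits (points) with its standard error (bars), by position in the proteasome. Filled points had an unadjusted p under 0.05. 25 of 29 points lie left of 0, PSMB5 farthest at -0.40, and no member passed the adjusted threshold.

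The catalytic subunits were all below 0. PSMB5, which carries the chymotrypsin-like activity, stood at 10.20, 10.46, 10.39, 10.45 and 9.92 in mild cows 1 to 5 and had a lowest, median and highest value of 9.52, 9.94 and 10.07 in severe cows. Mild cows 1 to 4 lay above all severe cows, and mild 5 lay among them. The means were 10.28 ± 0.23 (SD, n = 5) and 9.88 ± 0.20 (SD, n = 6), so severe minus mild was -0.40 ± 0.12 on the log2 scale (SE), which is 24.1% less signal (limma adjusted p = 0.307), with 6 of 6 severe cows below the mild mean. This was the largest difference among the 29 members.

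PSMB6, which carries the caspase-like activity, stood at 10.09, 10.18, 10.21, 10.19 and 9.69 in mild cows and between 9.39 and 10.02 in severe cows, with a median of 9.88. Again mild cows 1 to 4 lay above all severe cows and mild 5 did not. Its log2 difference was -0.26 ± 0.13 (SE), or 16.7% less (limma adjusted p = 0.440). PSMB7, which carries the trypsin-like activity, stood at 10.44, 10.49, 10.45, 10.59 and 10.22 in mild cows and between 10.02 and 10.47 in severe cows, with a median of 10.23. Severe 3, severe 5 and severe 6, at 10.32, 10.45 and 10.47, lay within the range of the mild cows, and the log2 difference was -0.19 ± 0.10 (SE, limma adjusted p = 0.466).

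Among the other beta subunits, which build the ring without cutting, PSMB3 and PSMB1 had the smallest p. PSMB3 stood at 10.48, 10.39, 10.30, 10.42 and 10.22 in mild cows and at a lowest, median and highest value of 9.47, 10.11 and 10.29 in severe cows. Mild cows 1 to 4 lay above all severe cows, mild 3 only just. Severe 2 was far below the rest, and severe 5 and severe 6 lay within the mild range, above mild 5. The log2 difference was -0.34 ± 0.13 (SE, limma adjusted p = 0.345), or -0.22 without severe 2. PSMB1 stood at 10.61, 10.60, 10.70, 10.66 and 10.51 in mild cows and between 10.28 and 10.62 in severe cows, with a median of 10.42. Severe 3, severe 5 and severe 6 lay within the mild range. Its log2 difference was -0.18 ± 0.08 (SE, limma adjusted p = 0.365), with 6 of 6 severe cows below the mild mean. PSMB4 and PSMB2 were at -0.06 and 0.02.

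The alpha ring, which gates the entry to the barrel, had a median log2 difference of -0.07, and 0 of its 6 members had an unadjusted p under 0.05. PSMA4 and PSMA7 were at -0.32 ± 0.17 and -0.22 ± 0.12 (SE) and PSMA5 at -0.13 ± 0.09. PSMA4 rested in part on severe 2, which lay at 8.34 while the other severe cows lay between 8.89 and 9.49, and its difference was -0.19 without that cow. PSMA1, PSMA3 and PSMA6 were within 0.02 of 0, at 0.002 ± 0.11, -0.01 ± 0.10 and 0.01 ± 0.09 (SE). Whether the alpha subunits differed from each other in size was not tested.

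**Figure D2:**
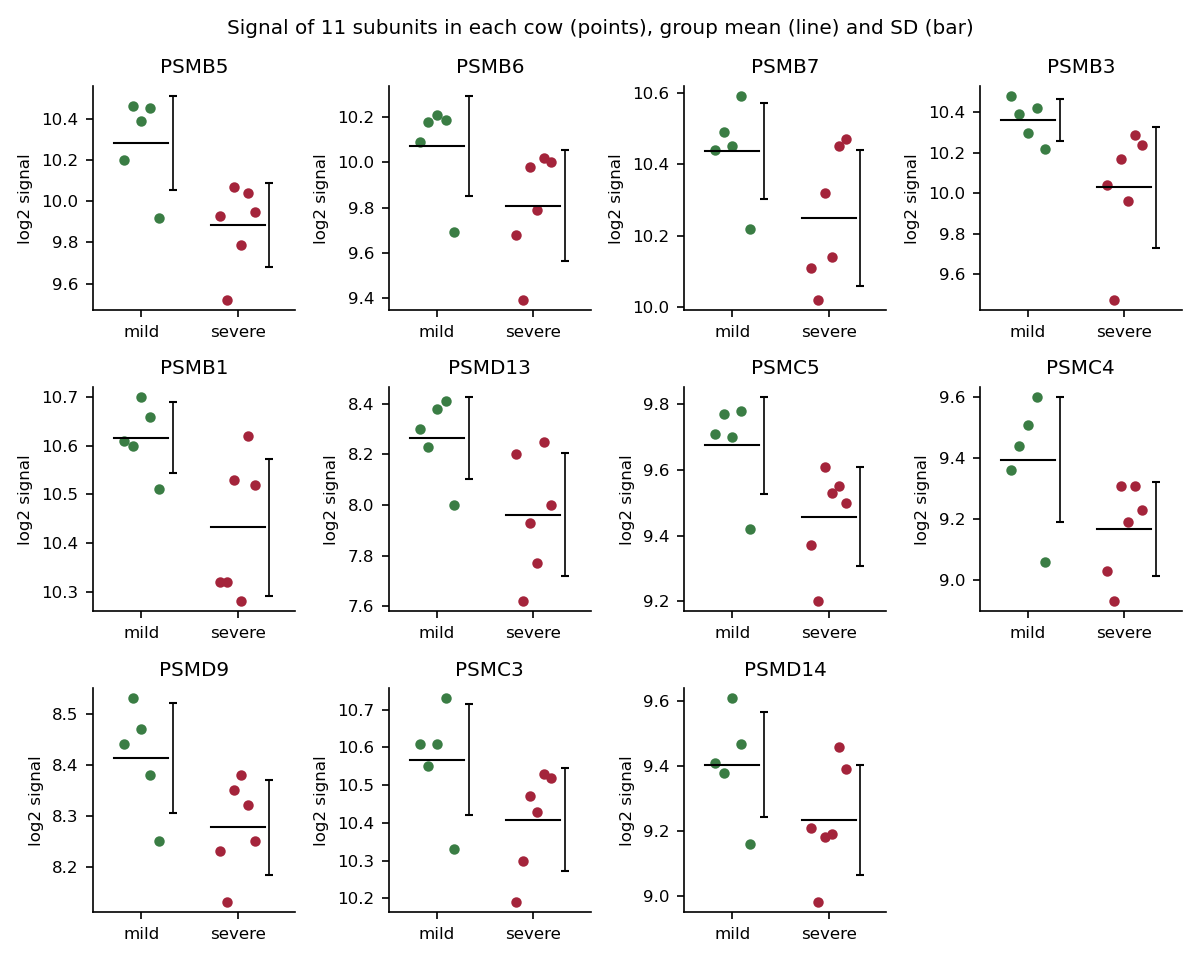
Log2 signal of 11 subunits in each mild (green) and severe (red) cow, with the group mean (line) and SD (bar); each panel has its own vertical axis, which does not start at 0. In PSMB3, PSMB5, PSMB6, PSMC3, PSMC4 and PSMC5, 4 of 5 mild cows lie above all severe cows, and in every panel the groups overlap.

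The ATPases of the cap, PSMC1 to PSMC6, form the ring that unfolds substrates. All 6 were below 0, with a median of -0.13. PSMC5 stood at 9.71, 9.77, 9.70, 9.78 and 9.42 in mild cows and at a lowest, median and highest value of 9.20, 9.51 and 9.61 in severe cows. Mild cows 1 to 4 lay above all severe cows and mild 5 among them. Severe minus mild was -0.22 ± 0.09 on the log2 scale (SE, limma adjusted p = 0.368), or -0.14 when both of its probe sets were averaged. PSMC4 had the same order, at 9.36, 9.44, 9.51, 9.60 and 9.06 in mild cows and between 8.93 and 9.31 in severe cows, with a median of 9.21. Its log2 difference was -0.23 ± 0.11 (SE, limma adjusted p = 0.396).

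PSMC3 stood at 10.61, 10.55, 10.61, 10.73 and 10.33 in mild cows and between 10.19 and 10.53 in severe cows, with a median of 10.45. Mild cows 1 to 4 lay just above all severe cows. The log2 difference was -0.16 ± 0.09 (SE, limma adjusted p = 0.476), with 6 of 6 severe cows below the mild mean. PSMC1 and PSMC2 were at -0.10 and -0.09, and PSMC6 at -0.005.

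The non-ATPase subunits had a median of -0.10, and 9 of 10 were below 0. PSMD13, a scaffold subunit of the lid, stood at 8.30, 8.23, 8.38, 8.41 and 8.00 in mild cows and at a lowest, median and highest value of 7.62, 7.96 and 8.25 in severe cows. 4 severe cows lay below mild 5, and severe 1 and severe 5, at 8.20 and 8.25, lay close to the other mild cows. The log2 difference was -0.30 ± 0.12 (SE, limma adjusted p = 0.350), the largest in the cap.

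PSMD14, the deubiquitinase that cuts the ubiquitin chain from the substrate, stood at 9.41, 9.38, 9.61, 9.47 and 9.16 in mild cows and between 8.98 and 9.46 in severe cows, with a median of 9.20. All severe cows but severe 2 lay within the mild range, and the log2 difference was -0.17 ± 0.10 (SE, limma adjusted p = 0.50). PSMD9, a chaperone of the ATPase ring, stood at 8.44, 8.53, 8.47, 8.38 and 8.25 in mild cows and between 8.13 and 8.38 in severe cows, with a median of 8.29. Mild 1, mild 2 and mild 3 lay above all severe cows, and mild 5 lay low among them. Its log2 difference was -0.14 ± 0.07 (SE, limma adjusted p = 0.456).

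The large scaffold subunits PSMD1 and PSMD2 were at -0.09 and -0.10, the ubiquitin receptor PSMD4 at -0.06, the lid subunits PSMD6 and PSMD11 at -0.10 and 0.03, and the chaperones PSMD5 and PSMD10 at -0.06 and -0.23. PSMD10 was the dimmest member and the most variable of the cap, with an SD of 0.28 in each group. Without the chaperones the cap's median was unchanged at -0.10 over 13 subunits.

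Second probe sets existed for 6 members. They gave -0.08 for PSMC2 and -0.06 for PSMC5, with the sign of the chosen probe set, and -0.13 for PSMD4. The sign differed in PSMB2 (-0.05 against 0.02), PSMC6 (0.07 against -0.005) and PSMD6 (0.17 against -0.10), all with adjusted p between 0.613 and 0.988. The second probe set of PSMC5 averaged 6.21 in mild cows against 9.67 for the chosen one, and that of PSMD6 averaged 6.62 against 9.11.

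The core and the cap were then set side by side. The median log2 difference was -0.18 over the 13 core subunits and -0.10 over the 16 cap subunits, a gap of 0.09, and 10 of 13 and 15 of 16 subunits were below 0. With means in place of medians the values were -0.16 and -0.13, a gap of 0.03. At an unadjusted p under 0.05 3 core subunits (23.1%) and 2 cap subunits (12.5%) were lower, where 7.46% of all genes were. Within the core the beta ring was at -0.19 and the alpha ring at -0.07. The catalytic subunits PSMB5, PSMB6 and PSMB7 had a median of -0.26, and the 4 other beta subunits one of -0.12. At an unadjusted p under 0.05, 1 of the 3 catalytic and 2 of the 4 other beta subunits were lower. The gap between core and cap was not tested, since the lists were chosen with earlier results of these data known.

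Each cow was then given a core and a cap score. A score averages, over the subunits, how far the cow's log2 value lay from the mean of the 11 cows. The scores of 1 cow lay close to each other. In mild cows 1 to 5 the core score was 0.16, 0.10, 0.17, 0.16 and -0.15 and the cap score 0.09, 0.08, 0.14, 0.15 and -0.12. In severe cows the core score was -0.35 at the lowest, -0.07 at the median and 0.15 at the highest, and the cap score -0.22, -0.07 and 0.09. Cap minus core ran from -0.07 to 0.03 in mild and from -0.06 to 0.13 in severe cows, so the groups overlapped in it. Mild 5 stood with the low severe cows on both scores, and severe 5 with the high mild cows.

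**Figure D3:**
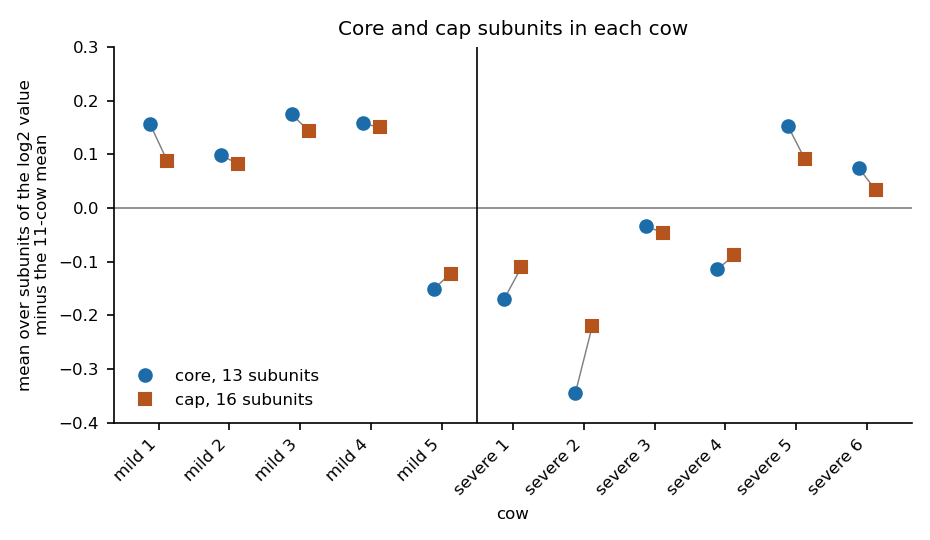
Core (circles) and cap (squares) score of each cow, the mean over subunits of the log2 value minus the 11-cow mean, with mild cows left of the vertical line. Severe 2 is lowest, at -0.35 and -0.22, and mild 5 lies apart from the other mild cows.

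The subunits varied together across cows, within the groups as well as between them. Mild 5 was the lowest mild cow in 26 of 29 members, where it was lowest in 32.5% of all genes. It lay above the 11-cow mean in 1 member, and in 37.6% of all genes, the smallest share of any cow. Severe 1 lay above that mean in 3 members (37.7% of all genes). Severe 2 was the lowest severe cow in 19 members (15% of all genes) and lay above the 11-cow mean in 2 (55.5% of all genes). Severe 5 was the highest severe cow in 15 members (20.6% of all genes). It lay above the 11-cow mean in 26 (48.4% of all genes), and mild 3 did in 28 (50.4% of all genes). The score over all 29 members averaged 0.08 ± 0.12 (SD, n = 5) in mild and -0.06 ± 0.14 (SD, n = 6) in severe cows, so the group difference was of the size of the spread among cows of 1 group. The median within-group SD of a member was 0.16, against 0.19 over all genes.

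**Figure D4:**
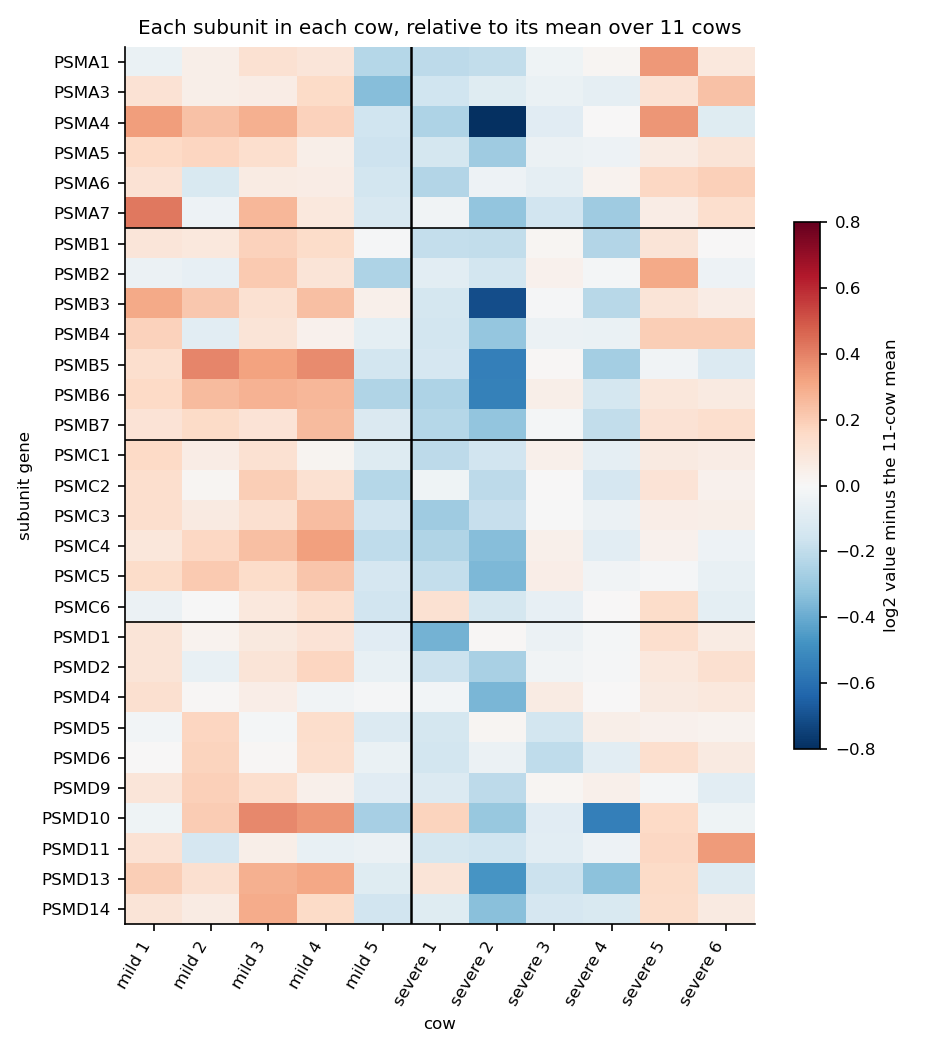
Log2 value of each subunit in each cow minus that subunit's mean over the 11 cows (colour; red higher, blue lower). The vertical line parts mild from severe cows and horizontal lines part alpha ring, beta ring, ATPases and non-ATPase cap. Mild 5, severe 1 and severe 2 are low in most rows, and severe 5 is high in most.

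Markers of leukocytes moved with the groups. Neutrophil markers were higher in the severe group in 6 of 6 measured, their mean deviation running from -2.13 to -0.71 in mild and from -0.12 to 2.66 in severe cows, and 11 of 12 T and NK cell markers were higher, with -0.75 to 0.07 against -0.16 to 0.87. Macrophage markers were higher in 8 of 8, with -1.23 to 0.19 against -0.84 to 1.31, and B and plasma cell markers in 5 of 5, with -1.58 to 0.74 against -1.02 to 2.23. At an unadjusted p under 0.05, 6 neutrophil, 8 T and NK cell, 4 macrophage and 5 B and plasma cell markers were higher (background 8.45%), and none passed the adjusted threshold. Smooth muscle markers were lower in 4 of 5, with -0.58 to 0.64 against -0.89 to 0.43. Epithelial markers overlapped (-0.39 to 0.29 against -0.80 to 0.65), with 5 of 9 higher, and stromal markers were higher in 5 of 10. At an unadjusted p under 0.05, 1 stromal marker was higher, PDGFRA at 0.97 (background 8.45%), and 1 lower, HOXA10 at -0.71 (background 7.46%). Endothelial markers were higher in 4 of 6. The 3 measured red blood cell markers were lower, near the floor, with gene means from 3.88 to 4.31. Severe 2, with the lowest proteasome score (-0.28), had a neutrophil score of 0.25 and the highest T and NK cell score, 0.87. Severe 4 had a proteasome score of -0.10, with 2.66 and 0.07 on these 2 scores. Severe 5 had a proteasome score of 0.12, with 2.00 and 0.78. How the marker scores relate to the proteasome score over the cows was not tested. The neutrophil score does not overlap between the groups, so a fit that holds both cannot tell it apart from the regime. With the neutrophil score as a covariate the members' median was -0.32, against -0.024 over all genes. In that fit 9 members (31.0%) were lower at an unadjusted p under 0.05, against 3.78% of all genes. Of the 5 lower without it, 2 were among these 9, PSMB3 and PSMC5. With the epithelial score as a covariate 4 (13.8%) were lower, against 7.39% of all genes.

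The inducible catalytic subunits had differences of the opposite sign to those they replace. PSMB8, which replaces PSMB5, stood at 8.86, 9.04, 9.48, 8.64 and 8.54 in mild cows and between 8.69 and 10.28 in severe cows, with a median of 9.47. Severe 2, severe 5 and severe 6 lay above all mild cows, and severe minus mild was 0.60 ± 0.27 on the log2 scale (SE, limma adjusted p = 0.377). PSMB9, which replaces PSMB6, was at 0.79 ± 0.34 (limma adjusted p = 0.371) and PSMB10, which replaces PSMB7, at 0.18 ± 0.16 (limma adjusted p = 0.661). None of the 3 passed the test. The difference of each pair within a cow is given as a description, with no test, because the pairs were formed after these opposite signs were seen.

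PSMB8 minus PSMB5 averaged -1.37 ± 0.32 (SD, n = 5) in mild and -0.37 ± 0.59 (SD, n = 6) in severe cows, a shift of 1.00. PSMB9 minus PSMB6 shifted by 1.05, from -2.13 ± 0.40 to -1.08 ± 0.68. PSMB10 minus PSMB7 shifted by 0.37, from -1.55 ± 0.30 to -1.18 ± 0.18. In each pair the mild mean lay below 6 of 6 severe cows, and the groups overlapped. The level of a difference between 2 probe sets has no meaning of its own, and only its shift between groups is read. With 1 cow left out in turn the shifts ran from 0.88 to 1.18, from 0.87 to 1.24 and from 0.29 to 0.47, and without mild 2 and severe 5 together they were 0.87, 0.86 and 0.25. PSMB8 and PSMB9 carried more of the first 2 shifts than their partners, at 0.60 and 0.79 against -0.40 and -0.26. Neutrophil, T and NK cell, macrophage and B and plasma cell markers, above, differed in the same direction as the inducible subunits. With the neutrophil score as a covariate, PSMB8, PSMB9 and PSMB10 were at -0.07, -0.15 and -0.20 and PSMB5 at -0.50, with limma adjusted p between 0.913 and 0.995. The neutrophil score does not overlap between the groups, so it cannot be told apart from the regime in that fit. The part of any cell type in these shifts was not tested.

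**Figure D5:**
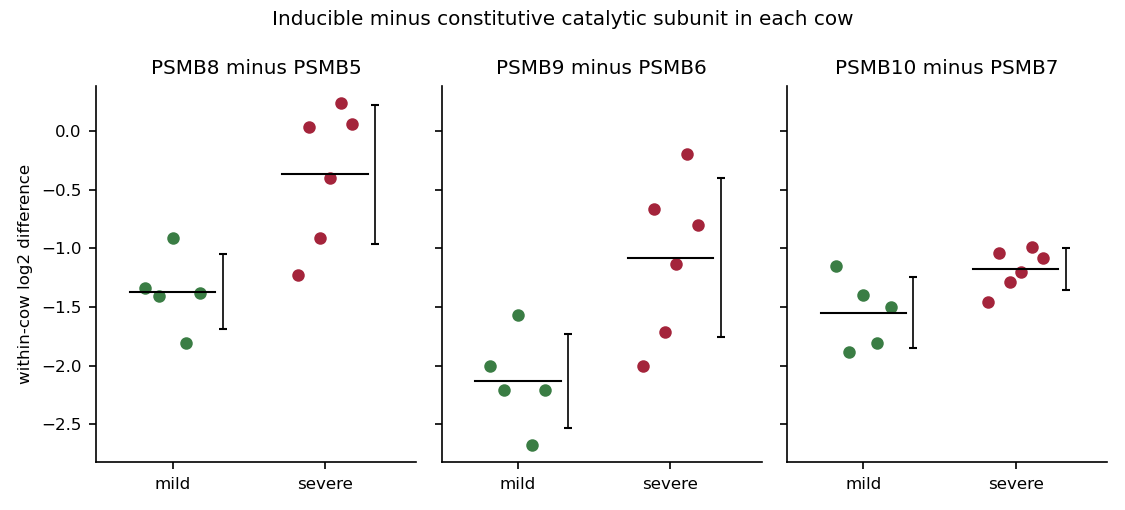
Log2 value of each inducible catalytic subunit minus that of its constitutive partner within each cow (points), with the group mean (line) and SD (bar). The mean shift from mild to severe is 1.00, 1.05 and 0.37, and the groups overlap in every panel.

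Other parts of the pathway were read from lists, by counts and medians. The first list held the inducible subunits, the activators that open the barrel and the inhibitor PSMF1. Of its 7 measured genes 6 were higher in severe cows, with a median of 0.18. At an unadjusted p under 0.05, 3 were higher (background 8.45%): PSMF1, PSMB9 and PSMB8. PSMF1, an inhibitor of the core, lay between 7.65 and 8.00 in mild cows and between 7.95 and 8.36 in severe cows, at 0.27 ± 0.09 (SE, limma adjusted p = 0.311), the activator subunits PSME1 and PSME2 at 0.15 and 0.12, and the activator PSME4 at -0.05.

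Of 8 genes of assembly and regulation, 7 were lower, with a median of -0.14, and 3 had an unadjusted p under 0.05 (background 7.46%): PSMG3, NFE2L2 and PSMG2. PSMG3, a chaperone of alpha ring assembly, stood at 8.04, 8.29, 8.16, 8.26 and 7.74 in mild cows and between 7.57 and 7.91 in severe cows, with a median of 7.84. Severe minus mild was -0.31 ± 0.11 on the log2 scale (SE, limma adjusted p = 0.317). Mild 5 was again the 1 mild cow within the severe range. NFE2L2, a transcription factor of the antioxidant response, was at -0.31 ± 0.12 (SE, limma adjusted p = 0.336). The other alpha ring chaperones PSMG2 and PSMG1 were at -0.26 and -0.20, the beta ring chaperone POMP at -0.07, and NFE2L1, the factor that raises proteasome genes when the protease is blocked, at -0.01. AKIRIN2, which brings proteasomes into the nucleus, was the 1 above 0, at 0.26.

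Of 12 receptors, shuttles and associated enzymes 8 were lower, with a median of -0.08, and 1 (8.33%, background 7.46%) had an unadjusted p under 0.05, UBQLN2, a shuttle that carries ubiquitinated proteins to the cap, at -0.15 ± 0.06 (SE, limma adjusted p = 0.359). USP14, a deubiquitinase bound to the cap, was at -0.20 ± 0.09 (SE, limma adjusted p = 0.391). The E1 enzymes UBA6 and UBA1, which activate ubiquitin, were at -0.20 and -0.03, the 2 measured genes of a list of 6.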

How the data were processed

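Per the submitters' processing notes the authors summarised the arrays with RMA (robust multi-array average), whose version and settings are not stated in the labels. The deposited values, from 2.63 to 14.57, were taken as log2 and used unchanged. Array medians were close (6.199 to 6.204), so transcripts moving all together would not show. Of 24128 probe sets 112 controls were left out; 13292 of 24016 had 1 symbol in the 2016 platform annotation, 86 several and 10638 none listed. Symbols were checked by Entrez number against a RefSeq table of the assembly ARS-UCD2.0 (13263 matched, 0 renamed).

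Severe was compared with mild in limma 3.58.1 (R 4.3.3, lmFit and eBayes). The two-sided p was adjusted by Benjamini-Hochberg across 24016 probe sets, with a threshold of 0.05. The fit was tested on simulated data, with 50 probe sets changed at each size. It called 38% of changes of 0.5 on the log2 scale, 90% of changes of 1 and 96% of changes of 2. False calls were 10 of 172. The largest difference of a member was 0.40 in size, so changes of the members' size would often be missed. Values in every cow are given for PSMB5, PSMB6 and PSMB7 and for the members with the smallest p, 4 of the core and 6 of the cap, and in the other lists the 2 genes with the smallest p are named; PSMB8, PSMB10 and further list genes were named after their values were seen. The members and lists were chosen with earlier results of these data known. Alternatives were a filter on dim probe sets, other normalizations and variance models, array weights, marker scores as covariates, cows left out and averaging a gene's probe sets. Replicate numbers only name cows. The labels give no block per cow. Figures were drawn with Python 3.11.15 and matplotlib 3.10.9.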

Additional observations from a re-analysis of the deposited data

Results flagged for a closer look

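In 64 sets of values (29 members and the core, cap and cap minus core scores, each in mild and in severe cows), 7 held a cow set apart from the rest of its group by Dixon's ratio; chance alone gives about 3.2, and the sets share cows. Mild 5 was low in PSMA3 (10.23, next mild cow 10.62), PSMB6 (9.69, next 10.09) and PSMC5 (9.42, next 9.70), and in the core score (-0.15, next 0.10) and the cap score (-0.12, next 0.08). Severe 1 was low in PSMD1 (8.46, next severe cow 8.79) and severe 2 in PSMD4 (9.08, next 9.42).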

How the results depend on the processing

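Medians over all members, the core and the cap stayed below 0 in all 21 alternatives to each, and the core's ran from -0.33 to -0.14. With each cow left out in turn they ran from -0.18 to -0.10, from -0.22 to -0.14 and from -0.15 to -0.08, and the gap of cap minus core from 0.04 to 0.09, while means in place of medians gave 0.03. With the neutrophil score as a covariate the medians of all members and of the cap were -0.32 and -0.23; that score does not overlap between the groups. In the main fit 5 members were lower at an unadjusted p under 0.05. A second quantile normalization gave 10 and array weights 12, each with all 5 among them (9.15% and 9.85% of all genes). The neutrophil score gave 9, with 2 of the 5 among them (3.78% of all genes), and leaving a cow out gave 1 to 14. At an unadjusted p under 0.01 there was 1, PSMB5, and the share of all genes at that threshold was not computed. No alternative gave a member higher at an unadjusted p under 0.05. Probe sets at an adjusted p under 0.05 numbered 0 to 16 with a cow left out (16 without severe 1, 2 without severe 3), no member among them, the smallest adjusted p of a member in any alternative being 0.143. The causes of these shifts were not tested.

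The sign turned in some alternative in 8 members, in 45 of 580 values; the main difference of all 8 but PSMD6 lay within 0.06 of 0. A second quantile normalization put all 29 below 0 and the median of all genes at -0.016, with PSMA1 at -0.018, PSMA6 at -0.050, PSMB2 at -0.018 and PSMD11 at -0.016. Array weights gave PSMA1 -0.049, PSMA6 -0.014 and PSMB2 -0.061. The neutrophil covariate gave PSMA1 -0.33, PSMA6 -0.27, PSMB2 -0.23, PSMD11 -0.20, PSMB8 -0.065, PSMB9 -0.15, PSMB10 -0.20 and UBA6 0.063, and the epithelial covariate PSMC6 0.000933. Without mild 2 and severe 5 PSMA1, PSMA6, PSMB2 and PSMD11 were at -0.055, -0.048, -0.057 and -0.032. Averaging the probe sets of a gene gave PSMB2 -0.015, PSMC6 0.032 and PSMD6 0.034. With a cow left out the ranges were -0.067 to 0.044 for PSMA1, -0.10 to 0.024 for PSMA3, -0.025 to 0.060 for PSMA6, -0.042 to 0.072 for PSMB2, -0.044 to 0.029 for PSMC6, -0.079 to 0.011 for PSMD4, -0.037 to 0.063 for PSMD11 and -0.076 to 0.000114 for UBA1. No paired analysis was possible because the labels number no cows across groups.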
